A study of Mus musculus with 10 samples.

Results

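Collagens are the trimeric proteins that give connective tissue its tensile strength, and each collagen type is built from alpha chains that are encoded by separate genes. The members were all array features with a gene name of the form Col, a number, a and a number, which took in 69 probes for 44 collagen genes among the 55681 probes and 34600 gene or transcript names of the array. They fall into 11 genes of fibrillar types, 8 of basement-membrane types (type IV and the related types XV and XVIII) and 25 of other types. Of the 44 genes, 18 gave enough signal to be tested and 26 did not. The rule takes genes by name alone.

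The cells were C2C12, an established mouse myoblast line that is widely used as a model of skeletal muscle precursors. One set of cultures was transfected with a miR-142-3p mimic, a synthetic double-stranded RNA that supplies the mature microRNA. The other set received a scrambled RNA. Both sets shared the cell line, the 150 nM dose, the carrier (Lipofectamine 2000) and the harvest 72 h after transfection, and the submitters put transfection efficiency at about 60%, so the RNA of each mimic culture also comes from cells that did not take up the mimic. Total RNA was labelled with Cy3 and hybridised to 1-colour oligonucleotide arrays. The labels list 6 mimic and 4 scramble replicates, but the file headers place the 10 scans on 5 positions of 1 slide, each scanned on 2 days. Pairs of scans from the same position correlated at 0.986 to 0.991 over probes, against 0.906 to 0.991 for scans from different positions, so both scans of each position were averaged, and the comparison rests on 3 mimic arrays and 2 scramble arrays. The titles of the scramble samples also carry a remark about re-analysis that the labels do not explain. The submitters describe the transfections as independent repeats, but the sources do not tie a culture to an array, so the p-values cover array-to-array spread only, which may be technical.

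A microRNA lowers the amount or the translation of messenger RNAs that carry a site matching its seed, the bases near its 5′ end. The mature mouse miR-142a-3p is shown because it is the agent that was added. Its RefSeq entry lies at chr11:87756903-87756925 on the plus strand of GRCm38.p6, and bases 2 to 8, the seed, are in capitals.
mmu-miR-142a-3p: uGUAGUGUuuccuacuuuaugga
The DNA letters complementary to that seed, ACACTAC, were looked for in the probe sequences on the strand that matches the messenger RNA. They occurred in 0 of the 69 collagen probes and in 144 of all 55681 probes (0.259%). A probe covers only 60 bases of a transcript, so this count says nothing about the rest of each messenger RNA.

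Fibrillar collagens (types I, II, III, V, XI, XXIV and XXVII) form the cross-striated fibres of tendon, skin and the sheaths around muscle. Type IV collagen forms the sheet-like network of the basement membrane that wraps each muscle fibre, and type VI collagen forms beaded filaments that link that membrane to the matrix outside it. Mutations in the 3 main type VI genes cause inherited muscle disease in humans. In muscle, fibroblast-like cells make most of the interstitial collagen, but myoblasts in culture also transcribe several of these genes.

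Signal was well above background for 25.4% to 34.6% of the spots of a scan, and at most 1 spot of a scan was saturated. Probes needed a clear signal, marked by the scanner software as well above background, on 4 or more of the 10 scans, and the brightest kept probe stood for its gene. Each value given here is on a log2 scale on which 0 is the 75th percentile of that scan's spots, and each difference is mimic minus scramble. Levels of different genes come from different probes and are not set against each other. A clear signal is called clearing background below. Over all 13673 genes tested with limma, 1278 (9.35%) had a Benjamini-Hochberg adjusted p under 0.05, with 755 (5.52%) higher and 523 (3.83%) lower in mimic cells, and the median difference was 0.09.

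Among the 18 collagen genes tested, Col7a1 rose and Col5a3 and Col6a2 fell in mimic-transfected cells. The other 15 did not pass the threshold. That is 3 of 18 genes (16.7%), beside 9.35% of all genes tested, with 1 higher beside 5.52% and 2 lower beside 3.83% of all genes. The median difference over the 18 was 0.00, with a range of -1.79 to 1.08, 10 genes above 0 and 8 below. An unadjusted p under 0.05 occurred in 9 of the 18 genes, beside 25.3% of all genes. The 3 mimic arrays and the 2 scramble arrays did not overlap for 11 of the 18 genes (61.1%), beside 42.8% of all genes. At the level of probes, 3 of the 21 kept collagen probes passed, the same 1 higher and 2 lower, beside 9.13% of the 17455 probes kept. In bulk RNA, fewer cells that express a gene and less of its RNA per cell cannot be told apart.

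**Figure D1:**
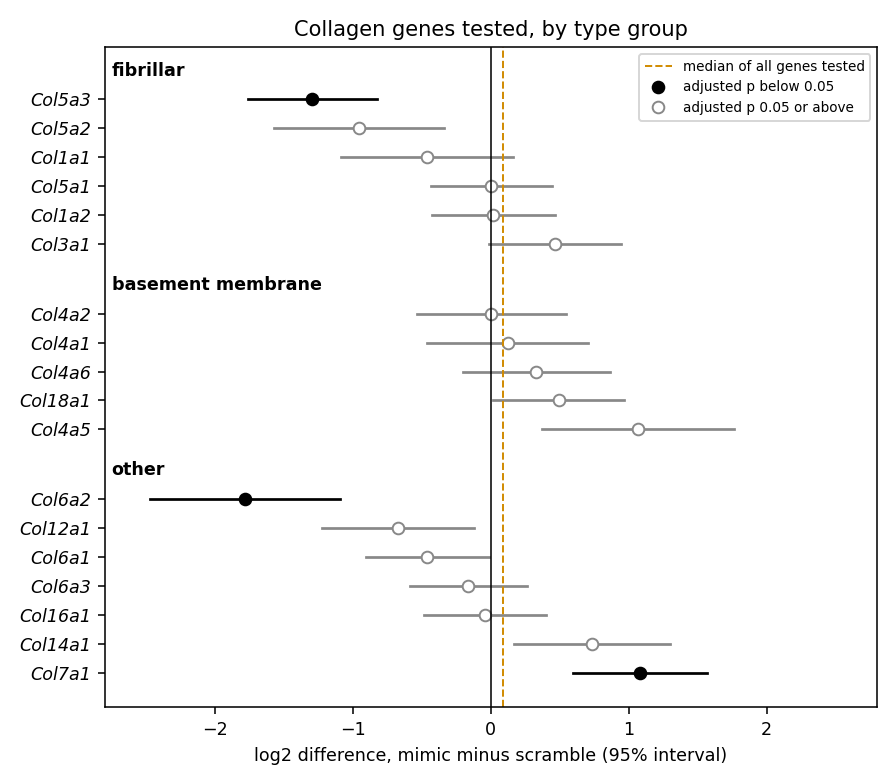
Log2 difference, mimic minus scramble, of each tested collagen gene (points, with 95% intervals from the limma fit), in blocks of fibrillar, basement-membrane and other types. Col5a3 at -1.29 and Col6a2 at -1.79 lie to the left with filled points and Col7a1 at 1.08 lies to the right, while the dashed line marks the median of all genes tested at 0.09.

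Detection itself divided the family. In 20 of the 44 genes no probe was well above background on any of the 10 scans, and 6 further genes reached it on 1 scan only. The fibrillar chains below the limit were Col2a1, Col11a1 and Col11a2, which are typical of cartilage, and Col24a1 and Col27a1. The basement-membrane chains below it were Col4a3 and Col4a4, which with Col4a5 form the type IV network of the kidney filter, and Col15a1. In the remaining types these were Col6a4, Col6a5, Col6a6, Col8a1, Col8a2, Col9a1, Col9a2, Col9a3, Col10a1, Col13a1, Col17a1, Col19a1, Col20a1, Col22a1, Col23a1, Col25a1, Col26a1 and Col28a1. Col6a5, Col8a1 and Col23a1 reached the limit on 1 mimic scan, and Col6a6, Col26a1 and Col28a1 on 1 scramble scan. For these 26 genes no direction is given. Of the 18 genes tested, 14 were well above background on all 10 scans, and the exceptions were Col5a2, Col4a6, Col12a1 and Col14a1.

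The sequences upstream of the 3 genes that passed the threshold are shown because these are the members whose RNA differed. Each is the 250 bases before the annotated gene start, from RefSeq on GRCm38.p6, written 5′ to 3′ on the strand of the gene. Any CAGCTG, a palindromic E-box of the kind that MyoD-family factors bind, is in capitals.
Col5a3, chr9:20815068-20815317, minus strand: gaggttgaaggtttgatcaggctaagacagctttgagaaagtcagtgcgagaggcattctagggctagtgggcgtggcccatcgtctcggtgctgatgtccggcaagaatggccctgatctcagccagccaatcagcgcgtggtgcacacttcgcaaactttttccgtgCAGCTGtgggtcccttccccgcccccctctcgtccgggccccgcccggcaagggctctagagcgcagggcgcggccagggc
Col6a2, chr10:76623631-76623880, minus strand: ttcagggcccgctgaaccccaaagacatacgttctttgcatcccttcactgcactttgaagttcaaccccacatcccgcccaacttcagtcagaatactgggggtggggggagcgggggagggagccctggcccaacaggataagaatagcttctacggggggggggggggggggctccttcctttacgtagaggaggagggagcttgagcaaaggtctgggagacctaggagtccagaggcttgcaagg
Col7a1, chr9:108953336-108953585, plus strand: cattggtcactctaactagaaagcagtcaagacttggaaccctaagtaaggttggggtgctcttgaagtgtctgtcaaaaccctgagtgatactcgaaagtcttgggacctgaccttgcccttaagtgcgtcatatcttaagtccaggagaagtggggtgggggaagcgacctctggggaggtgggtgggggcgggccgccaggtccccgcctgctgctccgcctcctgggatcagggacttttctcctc
Col6a2 has 2 annotated starts and the upstream-most is shown. CAGCTG, which reads the same on both strands, occurred 1 time before Col5a3 and 0 times before Col6a2 and Col7a1. It was present in 6 of the 38 such windows of the 35 collagen genes that had one, and in 4271 of the 32851 windows of all genes (13.0%). A match is a string of letters only, and no factor binding was measured. Coordinates of the array probes below are those the files give, on mm9.

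Collagen V is a minor fibrillar collagen that sits inside type I fibrils and limits their diameter. It is built mostly from the alpha 1 and alpha 2 chains, and Col5a3 encodes an alternative chain found in fewer tissues. Col5a3 (probe at chr9:20574592-20574651, minus strand) had normalised log2 signals of 1.60, 1.62 and 1.84 on the mimic arrays, against 2.84 and 3.11 on the scramble arrays. Every mimic array was lower than both scramble arrays. The difference was -1.29 ± 0.20 (SE), a fold of 2.45 (95% interval 1.77 to 3.39) with an adjusted p of 0.0068. It was -1.27 and -1.32 on the first and second scan days, and -1.13 and -1.50 within the first and second slide rows, each of which held arrays of both groups. Scaling to the array median gave an adjusted p of 0.0735 and dropping the detection filter gave 0.111. The sign was the same in all 20 alternatives, with adjusted p-values between 1.32e-05 and 0.111. The lowest came from the fit of the 10 scans as 10 samples, which counts rescans as replicates. That fit also gave the lowest values printed below for Col6a2, Col7a1 and Col4a5, and the ranges of partner genes include it.

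The partner chains of collagen V gave other values. Col5a1 had signals of 3.90, 3.96 and 3.84 on the mimic arrays, against 3.80 and 4.00 on the scramble arrays. Its groups overlapped, and the difference was 0.00 with a 95% interval of -0.44 to 0.44. Col5a2, which encodes the alpha 2 chain, had -0.25, -0.87 and -0.29 on the mimic arrays, against 0.73 and 0.24 on the scramble arrays. Here the groups did not overlap, but the adjusted p of 0.0637 missed the threshold, at a difference of -0.96 ± 0.27. Its probe cleared background on 4 of the 6 mimic scans and on 4 of the 4 scramble scans, and it passed the threshold in 5 of 19 alternatives. Those include the fit of the 10 scans as samples and the fit with the replicate number as a block, which count rescans as replicates.

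Within an array, the log2 signal of Col5a3 minus that of Col5a1 was -2.30, -2.34 and -2.003 in mimic cells, against -0.96 and -0.88 in scramble cells. This within-array ratio does not depend on how an array is scaled, and it differed by -1.30 between the groups with no overlap. For Col5a2 minus Col5a1 the difference was -0.96, also with no overlap. Since Col5a1 itself differed by 0.00, these ratios repeat the differences of Col5a3 and Col5a2 and are no separate support. With 3 arrays against 2, a two-sided exact permutation test cannot go below p = 0.2, and both pairs gave p = 0.2 (0.28 after Benjamini-Hochberg adjustment over the 7 chain pairs compared). The test could not have passed the threshold in this design and decides nothing about these ratios.

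Collagen I, a trimer of alpha 1 and alpha 2 chains, and collagen III are the most abundant collagens of soft connective tissue. Col1a1 had signals of 4.35, 4.30 and 4.62 on the mimic arrays, against 5.28 and 4.49 on the scramble arrays. The second scramble array lay within the range of the mimic arrays, and the difference of -0.46 ± 0.27 had an adjusted p of 0.326. It was -0.79 in the first slide row and -0.19 in the second, and it was -0.07 without the first scramble array and -0.86 without the second. Col1a2 gave 7.01, 7.24 and 6.999 on the mimic arrays, against 7.09 and 7.05 on the scramble arrays, a difference of 0.02 with an interval of -0.43 to 0.46. The within-array ratio of Col1a1 to Col1a2 differed by -0.48 with overlapping groups (exact permutation p = 0.4, 0.4 after adjustment over the 7 pairs). Col3a1 had 7.07, 7.32 and 7.35 on the mimic arrays, against 6.94 and 6.64 on the scramble arrays. Those groups did not overlap, and the difference of 0.46 ± 0.21 had an adjusted p of 0.212.

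Taking the 6 tested fibrillar genes as a group, 0 rose (beside 5.52% of all genes), 1 fell (beside 3.83%) and 5 did not pass, and the median difference was -0.23 beside 0.09 over all genes. Their range was -1.29 to 0.46, and 3 of the 6 (50%) had groups that did not overlap, near the 42.8% of all genes.

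Collagen VI is assembled from equal parts of the chains encoded by Col6a1, Col6a2 and Col6a3. Col6a2 (probe at chr10:76058931-76058990, minus strand) had normalised log2 signals of 1.19, 1.29 and 1.33 on the mimic arrays, against 2.55 and 3.56 on the scramble arrays. The mimic arrays lay close together and below both scramble arrays, and the scramble arrays stood further apart. The difference was -1.79 ± 0.30, a fold of 3.45 (95% interval 2.14 to 5.56) with an adjusted p of 0.00937. It was -1.80 and -1.77 on the 2 scan days, and -1.29 and -2.27 in the first and second slide rows. The value was -2.29 without the first scramble array and -1.28 without the second. A second Col6a2 probe, designed on a predicted transcript, did not exceed background clearly on any scan, so the result rests on 1 probe. The call was lost in 3 of 20 alternatives, with adjusted p-values of 0.0693 without the detection filter, 0.0611 on the deposited matrix and 0.0535 without the first mimic array, in a range of 8.74e-05 to 0.0693 over the alternatives.

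The other type VI chains differed less. Col6a1 had 5.89, 5.91 and 5.79 on the mimic arrays, against 6.44 and 6.21 on the scramble arrays. Its groups did not overlap, and the difference of -0.46 ± 0.19 had an adjusted p of 0.184. Col6a3, which encodes the longest of the type VI chains, had 4.67, 4.74 and 4.67 on the mimic arrays, against 4.88 and 4.83 on the scramble arrays. These too did not overlap, at a difference of -0.16 ± 0.18 and an adjusted p of 0.614. All 3 chains were thus lower on every mimic array than on both scramble arrays. Groups without overlap, in either direction, occurred in 42.8% of all genes tested. Of the 3 chains, 1 passed the test.

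Within an array, Col6a2 minus Col6a1 was -4.70, -4.62 and -4.46 in mimic cells, against -3.89 and -2.64 in scramble cells. The groups did not overlap and differed by -1.32. Col6a2 minus Col6a3 differed by -1.62, again with no overlap. Both pairs gave p = 0.2 in the exact permutation test, the smallest the design allows, and 0.28 after adjustment over the 7 pairs.

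**Figure D2:**
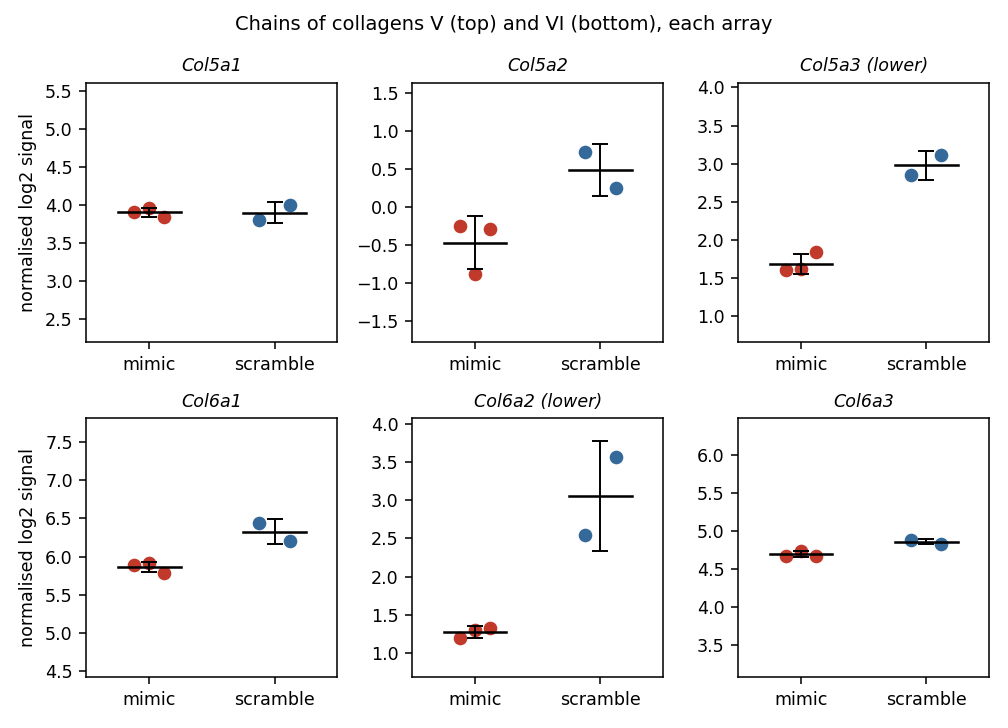
Normalised log2 signal (0 is the 75th percentile of a scan) of the chains of collagens V and VI on each array, with mimic arrays on the left and scramble arrays on the right of each panel, horizontal lines for means and bars for SD (n = 3 and n = 2). All panels span the same number of log2 units, so the drop of 1.79 for Col6a2 and of 1.29 for Col5a3 can be set beside the overlapping points of Col5a1.

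Type VII collagen forms the anchoring fibrils that fasten the basement membrane of skin to the tissue beneath it. Col7a1 (probe at chr9:108886861-108886920, plus strand) had normalised log2 signals of 0.69, 1.06 and 0.73 on the mimic arrays, against -0.15 and -0.36 on the scramble arrays. Each mimic array was above both scramble arrays. The difference was 1.08 ± 0.21, a fold of 2.11 (95% interval 1.51 to 2.96) with an adjusted p of 0.0177. It was 1.13 and 1.03 on the 2 scan days, and 0.86 and 1.41 in the first and second slide rows. The call was lost in 6 of 20 alternatives, among them leaving out any of the 3 mimic arrays (0.065, 0.0741 and 0.0662) and leaving out the second scramble array (0.0568), while the sign was the same in all 20 and the adjusted p-values ran from 0.000231 to 0.217. Normexp background correction gave a difference of 0.71 (adjusted p 0.033).

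Collagens XII, XIV and XVI belong to the FACIT group, which attach to the surface of fibrils. Col12a1 had -0.84, -1.23 and -0.65 on the mimic arrays, against -0.39 and -0.07 on the scramble arrays. The probe cleared background on 3 of the 6 mimic scans and on 3 of the 4 scramble scans, and the difference of -0.67 ± 0.24 had an adjusted p of 0.128, against -0.21 with normexp background correction. Col14a1 had 0.47, 0.81 and 0.61 on the mimic arrays, against 0.21 and -0.41 on the scramble arrays. Its difference of 0.73 ± 0.24 had an adjusted p of 0.11, and was 1.04 without the first scramble array and 0.42 without the second. In both genes the groups did not overlap, in opposite directions. Col16a1 had 2.90, 3.08 and 3.16 on the mimic arrays, against 3.07 and 3.11 on the scramble arrays, with overlapping groups and a difference of -0.04 ± 0.19. Its other kept probe gave 0.07. Among the 7 tested genes of other types, 1 rose (beside 5.52% of all genes), 1 fell (beside 3.83%) and 5 did not pass, at a median of -0.16 beside 0.09 over all genes, and 6 of the 7 had groups that did not overlap (beside 42.8% of all genes).

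No basement-membrane collagen passed the threshold in the limma fit (0 of 5, beside 9.35% of all genes). An unadjusted p under 0.05 occurred in 2 of the 5, beside 25.3% of all genes. The groups did not overlap for 2 of the 5 (40%), near the 42.8% of all genes. The median difference was 0.33 beside 0.09 over all genes. Col4a1 and Col4a2 encode the chains of the most widespread type IV trimer and share a promoter region. Their RefSeq windows, 300 bases each around the gene start, overlapped by 78 bases on opposite strands. Col4a1 had signals of 2.17, 2.29 and 2.18 on the mimic arrays, against 1.72 and 2.46 on the scramble arrays. Col4a2 (probe at chr8:11448840-11448899) had 1.12, 1.27 and 1.43 on the mimic arrays, against 0.99 and 1.55 on the scramble arrays. In both genes the first scramble array was below and the second above all mimic arrays. The differences were 0.12 (95% interval -0.46 to 0.70) for Col4a1 and 0.00 (-0.54 to 0.54) for Col4a2, and without the first scramble array they were -0.25 and -0.27, against 0.49 and 0.28 without the second. Their within-array ratio differed by 0.12 with overlapping groups (exact permutation p = 0.4, 0.4 after adjustment).

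Col4a5 and Col4a6, a pair on chromosome X, encode chains of the less widespread type IV networks. Col4a5 (probe at chrX:138123547-138123606) had 2.83, 3.02 and 2.88 on the mimic arrays, against 2.36 and 1.33 on the scramble arrays. The groups did not overlap, and the scramble arrays stood further apart from each other than the mimic arrays did. The difference of 1.07 ± 0.30 (95% interval 0.37 to 1.76) had an adjusted p of 0.0668. It was 0.50 in the first slide row and 1.69 in the second, and leaving out the first scramble array gave 1.58 with an adjusted p of 0.0038, against 0.55 and 0.178 without the second. Over the 20 alternatives its adjusted p ran from 0.00338 to 0.375, and it passed in 7. Those include the fit of the 10 scans as samples and the fit with the replicate number as a block, which count rescans as replicates. They also include the fit without the first scramble array. For Col4a6 the main probe gave -0.30, -0.17 and 0.01 on the mimic arrays, against -0.22 and -0.74 on the scramble arrays, a difference of 0.33 ± 0.23 with overlapping groups.

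The 2 kept probes of Col4a6 did not give the same size of difference. The dimmer cleared background on 4 of the 6 mimic scans and on 0 of the 4 scramble scans, with measured means of -0.45 in mimic cells and -2.31 in scramble cells. Since the scramble level is only a bound, it is given as at least 1.67-fold higher in mimic cells, computed against the higher of the probe's own signal and the lowest signal among probes well above background on each scramble array. The probe passed the filter through its mimic scans alone, and its adjusted p in the fit over probes, 0.0692, supports nothing by itself. The within-array ratio of Col4a5 to the main Col4a6 probe differed by 0.74 with no overlap (exact permutation p = 0.2, 0.28 after adjustment).

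Col18a1, whose heparan-sulphate-bearing product is the source of endostatin, had 4.24, 4.54 and 4.38 on the mimic arrays, against 4.04 and 3.75 on the scramble arrays. Its groups did not overlap, and the difference of 0.49 ± 0.21 had an adjusted p of 0.186. The second kept Col18a1 probe gave 0.39.

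**Figure D3:**
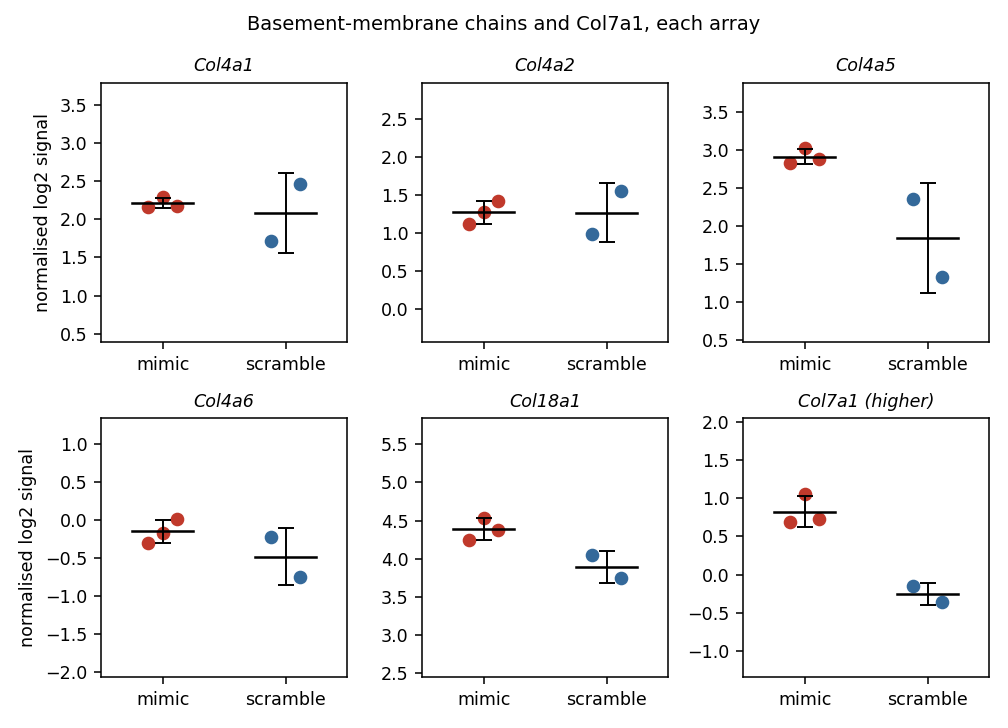
Normalised log2 signal of the 5 tested basement-membrane collagen genes and of Col7a1 on each array, with mimic arrays on the left and scramble arrays on the right, lines for means and bars for SD (n = 3 and n = 2). The scramble arrays stand far apart for Col4a5, at 2.36 and 1.33, while the mimic arrays of Col7a1 all lie above its scramble arrays.

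Collagen chains are hydroxylated and folded in the endoplasmic reticulum, trimmed outside the cell, cross-linked, and bound by small proteoglycans and receptors. Of 32 listed genes of collagen biosynthesis and processing, 23 were tested, 2 rose and 0 fell, at a median difference of 0.14. That is 8.70% of those tested, close to the 9.35% of all genes. P4ha2, a catalytic subunit of the prolyl hydroxylase that stabilises the triple helix, had 3.90, 4.17 and 4.18 on the mimic arrays, against 3.15 and 3.18 on the scramble arrays. The groups were well apart, at 0.92 ± 0.20 or 1.89-fold with an adjusted p of 0.0266, and the call was lost in 9 of 20 alternatives, where adjusted p-values ran from 0.000118 to 0.312. Leaving out mimic array 1, 2 or 3 or the second scramble array gave 0.0717, 0.107, 0.127 and 0.0552. Pcolce2, an enhancer of procollagen C-terminal trimming, had 2.38, 2.38 and 2.45 on the mimic arrays, against 1.37 and 1.04 on the scramble arrays, a 2.29-fold rise with an adjusted p of 0.00903. Its call was lost in 3 of 20 alternatives (adjusted p 1.77e-05 to 0.143), among them without mimic array 1 (0.0534) or 3 (0.0526). The remaining 21 included Serpinh1, the collagen chaperone (-0.18, adjusted p 0.575), P4hb (0.15, adjusted p 0.738) and Bmp1, the procollagen C-proteinase (0.43, adjusted p 0.355).

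Of 17 listed cross-linking and fibril-binding genes, 11 were tested, 1 rose and 1 fell (18.2%, beside 9.35% of all genes), at a median of 0.38 beside 0.09. Lum encodes lumican, a small leucine-rich proteoglycan that binds collagen fibrils. It had 2.43, 2.77 and 2.44 on the mimic arrays, against 0.83 and -0.75 on the scramble arrays, and was well above background on 3 of 4 scramble scans. The scramble arrays stood far apart and both lay below the mimic arrays. Its 5.70-fold rise had an adjusted p of 0.009 and passed in all 19 alternatives that gave a value, at up to 0.0498. The difference of 2.51 was 1.72 without the second scramble array and 3.30 without the first. Loxl1, a lysyl oxidase relative that cross-links elastin and collagen, had 3.01, 3.02 and 2.99 on the mimic arrays, against 4.08 and 4.30 on the scramble arrays, a 2.27-fold fall with an adjusted p of 0.00762. It was lost in 3 of 20 alternatives (adjusted p 7.07e-06 to 0.139), and sat at the threshold without mimic array 1 (0.0500016). Lox itself gave 0.60 (adjusted p 0.127), and Dcn, which encodes decorin, 0.82 (adjusted p 0.0773).

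Among collagen receptors, 7 of 11 listed genes were tested, and 0 rose and 1 fell (14.3%, beside 9.35% of all genes) at a median of -0.46 beside 0.09. Itga11, the integrin alpha 11 chain that pairs with beta 1 to bind fibrillar collagen, had -0.79, -0.69 and -1.16 on the mimic arrays, against 1.06 and 0.21 on the scramble arrays. The groups did not overlap, and the 2.86-fold fall had an adjusted p of 0.0171. It was lost in 4 of 19 alternatives (adjusted p 0.000286 to 0.131), among them without mimic array 1 (0.0695) or 3 (0.0682), and normexp background correction gave a difference of -0.98. Ddr1, a receptor tyrosine kinase for collagen, gave -0.78 (adjusted p 0.0634) and Ddr2 gave 0.09 (adjusted p 0.806).

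In the basement-membrane list 15 of 21 genes were tested, 3 rose and 2 fell (33.3%, beside 9.35% of all genes), at a median of 0.21 beside 0.09. The nidogens, which bridge laminin and type IV collagen, moved in opposite directions. Nid2 had 0.21, 0.05 and 0.41 on the mimic arrays, against 2.06 and 2.26 on the scramble arrays, a 3.82-fold fall with an adjusted p of 0.000878 that passed in all 20 alternatives. Nid1 had 5.67, 6.00 and 5.88 on the mimic arrays, against 4.98 and 4.50 on the scramble arrays, a 2.16-fold rise with an adjusted p of 0.0215 that was lost in 10 of 20 alternatives. Lama2, the laminin alpha 2 chain of the muscle basement membrane, fell 1.97-fold (adjusted p 0.0175), with 2.40, 2.35 and 2.38 on the mimic arrays, against 3.45 and 3.25 on the scramble arrays. Ecm1, a matrix protein that binds perlecan, rose 1.97-fold (adjusted p 0.0225) by the brighter of its 2 kept probes. The mean of those probes gave a log2 difference of 0.43 (adjusted p 0.424), against 0.98 for the brighter probe alone. The other kept probe thus did not share that rise, and the call rests on the brighter probe. These calls were lost in 5 of 20 alternatives for Lama2 and in 10 of 20 for Ecm1. Leaving out any mimic array ended the calls of Nid1 (0.0662, 0.0858 and 0.0886 without array 1, 2 or 3), Lama2 (0.0834, 0.0752 and 0.0847) and Ecm1 (0.111, 0.069 and 0.0919). Leaving out the second scramble array ended those of Nid1 (0.0692) and Ecm1 (0.0653). Over the 20 alternatives the adjusted p ran from 0.000211 to 0.223 for Nid1, 4.67e-05 to 0.300 for Lama2 and 0.000305 to 0.424 for Ecm1, whose kept probes averaged to 0.43.

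**Figure D4:**
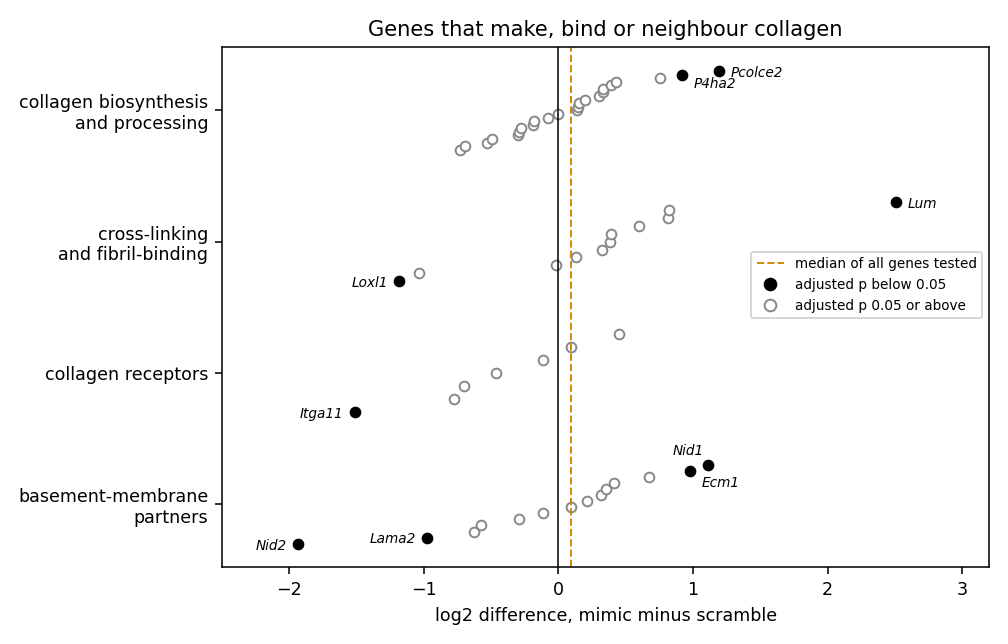
Log2 difference, mimic minus scramble, of tested genes in 4 lists of genes that make, cross-link, bind or neighbour collagen, with filled points for adjusted p under 0.05. Lum at 2.51 stands to the right of all other points and Nid2 at -1.93 to the left, and the dashed line marks the median of all genes tested at 0.09.

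Some markers of cell type also passed the threshold, beside 5.52% of all genes higher and 3.83% lower. Of 8 myoblast markers 6 were tested, 0 rose and 4 fell, namely Myod1 (-3.25), Cdh15 (-1.98), Des (-1.32) and Itga7 (-0.75). Vcam1 (0.22) and Chrna1 (-0.71) did not pass. The summed linear signal of the list is in multiples of a scan's 75th percentile. It was 215 to 231 in mimic cells and 391 to 440 in scramble cells, and most of it comes from Itga7 and Chrna1. Pax7 and Myf5 were not well above background on enough scans. Of 7 fibroblast markers 4 were tested, Twist2 rose (0.94) and Pdgfrb fell (-1.10), with a sum of 9.41 to 11.7 in mimic cells and 11.6 to 13.5 in scramble cells. Of 6 macrophage markers 3 were tested and Cd68 rose (4.83), while Csf1r (0.17) and Itgam (0.14) did not pass. The sum was 41.2 to 44.4 in mimic cells and 15.1 to 15.3 in scramble cells, and its rise comes mainly from Cd68. The probes taken for Ptprc, Lyz2 and Adgre1 cleared background on no scan. For osteoblasts 1 of 5 was tested and rose (Phex, 1.87), with a list sum of 6.76 to 8.30 in mimic cells and 2.08 to 2.46 in scramble cells. That sum is mostly Phex, since the probes taken for Runx2, Sp7 and Ibsp cleared background on no scan and that for Bglap on 1. No marker passed among chondrocyte (2 of 5 tested), endothelial (1 of 5) or glial (1 of 4) genes. The probes taken for the 5 adipocyte and 4 epithelial markers cleared background on no scan, and none of these genes was tested. Whether a change in cell state or cell mix has a part in the collagen differences was not tested.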

How the data were processed

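RNA of C2C12 cells was measured on 1-colour Agilent arrays. Per the file headers, the deposited spot intensities were made with Feature Extraction 12.0.0.7, against 10.7.3.1 in the submitters' processing notes, and the processed intensity was background-corrected by that software. The deposited series matrix holds intensity values too and served as an alternative. Control spots and non-uniform or outlier spots were left out. Signals were log2-transformed and each scan's 75th percentile, taken on 59305 non-control spots, was subtracted. Spots of a probe were averaged. The filter asked for 4 or more of 10 scans with at least 0.5 of a probe's spots well above background, which left 17455 probes. Gene names were updated through RefSeq (GRCm38.p6): accessions matched for 28361 probes, symbols for 3186 and synonyms for 270, while 23864 kept the file's name. Scans of a position were averaged. limma 3.58.1 (R 4.3.3; lmFit, eBayes; 3 residual and 4.90 prior degrees of freedom) compared 3 mimic with 2 scramble arrays over all genes, with Benjamini-Hochberg adjustment at 0.05, and was tested on simulated data. The small number of arrays limits the precision.

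The members and gene lists were chosen with earlier results of these data known. Every collagen gene is accounted for, and of each partner list every gene past the threshold is named, up to 8, except 1 that counts among its list but is not reported here. Partner genes below the threshold (Serpinh1, P4hb, Bmp1, Lox, Dcn, Ddr1 and Ddr2) and the cell type markers printed were picked after their values were seen. The chain pairs compared do not cover every pair within a type, and leave out Col6a1 with Col6a3. Alternatives covered scaling, background, filter, probe choice, scan day, slide row, the labelled replicates, the deposited matrix and each array left out. The labels number replicates in both groups. Scans of the same number deviated together at correlations of 0.19, -0.05, -0.27 and 0.14. Since the numbers run over rescans of the same arrays, they were not taken as pairs. The location of a probe within its transcript was not annotated here, and protein sequences were not used here.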

Additional observations from a re-analysis of the deposited data

How the results depend on the processing

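The direction of Col5a3, Col6a2 and Col7a1 was the same under all 20 alternatives. Several alternatives reuse the same probe and return the same difference, such as -1.29 for Col5a3 without the filter and with the 10 scans as samples. The groups did not overlap for these 3 genes, so leaving out an array could not change the sign. The shared direction is thus no independent support. The number of calls was not stable. The 1278 genes called became 761 with scaling to the array median, 423 of 34600 without the detection filter, 832 with slide row as a block, 616 on the deposited matrix and 4209 with the 10 scans as 10 samples, which counts rescans as replicates. Leaving out 1 array gave 530 (without mimic array 1) to 3746 (without the first scramble array). For collagens, the 3 calls became 1 with the array median, 5 with a filter requiring every scan of at least 1 group, 10 with the 10 scans as samples and 1 (without mimic array 1) to 5 (without the first scramble array) with 1 array left out. Without the filter limma called 0 of 44 collagen genes, with 6 at an unadjusted p under 0.05, beside 3001 of all 34600 genes. The collagen median of 0.00 was 0.087 with the array median, -0.13 with a percentile over probes detected on all scans, -0.0802 with quantile normalization, -0.11 without the filter, -0.0708 on the deposited matrix and -0.0811 to 0.0421 with 1 array left out. The all-gene median was 0.18 with the array median and -0.04 with that percentile, and with differences this small Col1a2, Col4a2 and Col5a1 kept their sign in 13 of 20 alternatives each, Col16a1 in 17 and Col4a1 in 18. The split of 755 higher and 523 lower genes was 674 and 664 with the percentile over detected probes, 214 and 209 without the filter and 305 and 311 on the deposited matrix. The cause of these shifts was not tested.

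With the replicate number as a block over the 10 scans, 2300 genes and 5 collagen genes (Col4a5 at 1.05 and Col5a2 at -0.81 added) passed. For each scramble scan the best-correlated mimic scan had another number. The numbers run over rescans of the same arrays, so these correlations cannot test a pairing of cultures.

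The array has few spots above background, 1 slide holds all arrays, and each result rests on 2 scramble arrays. For 26 collagen genes the signal allows no direction, and Lum, Col4a6, Col12a1 and Col14a1 were not well above background on every scramble scan.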
